A study of Homo sapiens with 7 samples.

Results

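DPPA4, L1TD1, ZFP42 and TDGF1 are 4 genes whose transcripts mark undifferentiated human embryonic stem cells. They were taken by name from a long-read RNA sequencing series in HUES66 cells, an established human embryonic stem cell line, and make up 4 of the 14294 genes and 326 of the 386982 isoforms in the deposited table. The series holds 7 libraries of polyadenylated RNA, 1 for each group. The control is labelled WT, and the other 6 libraries are labelled as knockdowns of RBFOX2 isoforms, made per the series title with Cas13d, a nuclease that cuts RNA at sites set by a guide. Each of the 6 has an RBFOX2 id and a G number: 178147 for G3, 178149 for G5, 178136 for G11, 178135 for G12, 178145 for G13 and 178146 for G14. The labels do not say which RBFOX2 isoform an id stands for, nor how the cultures relate to each other. All 7 cultures, the control included, carried the note piggyBac, a transposon system for inserting transgenes, received doxycycline at 1 µg/ml and were collected at 24 h. RBFOX2 is an RNA-binding splicing regulator.

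DPPA4 is a chromatin-associated protein that works as a pair with DPPA2 and is found in pluripotent cells and the germ line. L1TD1 descends from the RNA-binding open reading frame of a LINE-1 retrotransposon and binds RNA together with LIN28A in human embryonic stem cells. ZFP42, also called REX1, is a zinc finger protein that arose by retroposition from the gene of the transcription factor YY1. TDGF1, also called CRIPTO, is a membrane-anchored co-receptor through which NODAL and related ligands engage the activin receptors. A spliced transcript may or may not keep the full coding region of its gene, and a long read shows the whole exon chain of 1 molecule.

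The libraries held 16801847 (control) to 26678531 (G12) reads. Values are in TPM, which here is the read count scaled to the library total, with no term for transcript length, so levels are compared between libraries and not between genes. No group has a replicate: intervals are 95% intervals of the counting error alone, p-values compare libraries and not conditions, and culture and library preparation cannot be told apart from the knockdown. In bulk RNA, fewer cells of a type and less RNA per cell cannot be told apart either. RBFOX2 itself stood at 107 TPM in the control, 42.1 (G3), 96.8 (G5), 82.9 (G11), 88.5 (G12), 55.9 (G13) and 106 (G14); a gene total does not check the knockdown of single isoforms. A gene was compared where its mean was at least 5 TPM, which 7877 genes reached. Of the 7736 of these with a GENCODE sequence, the 1547 with the shortest transcripts (207 to 1615 nt) had a median log2 ratio to the control of -0.70 over the G libraries, against -0.03 to 0.08 in the 4 longer classes. The transcripts of the 4 genes were 2463 to 3849 nt long. Their GC content was 40.5% (L1TD1) to 44.1% (TDGF1), at percentiles 16.9 to 34.5 of the 7736 genes. Their ratios are also given below after removal of a trend fitted on length and GC content together. The part of length alone is not given. Every isoform in the table had at least 1 control read, so an isoform absent from the control enters no value, and rare isoforms weigh more in the control: of the 46 L1TD1 isoforms, 25 had exactly 1 control read and 21 had reads in no other library. Shares that depend on this are given also for isoforms with a read in all 7 libraries, a restriction chosen after seeing the data.

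L1TD1 stood furthest from the control. It was at least 2-fold higher in 5 of the 6 G libraries, though the interval of each of these ratios held 2-fold. After removal of the length and GC trend it was under 2-fold in all 6. Without that removal, the level in G12 was 136% of the control. DPPA4 and TDGF1 were also higher in all 6 G libraries, by less than 2-fold. ZFP42 was higher in 4 and lower in 2. The share of all 7877 genes that were higher in all 6 G libraries was 21.1%, and 20.5% were lower in all 6, so this direction alone does not set DPPA4 and TDGF1 apart.

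**Figure D1:**
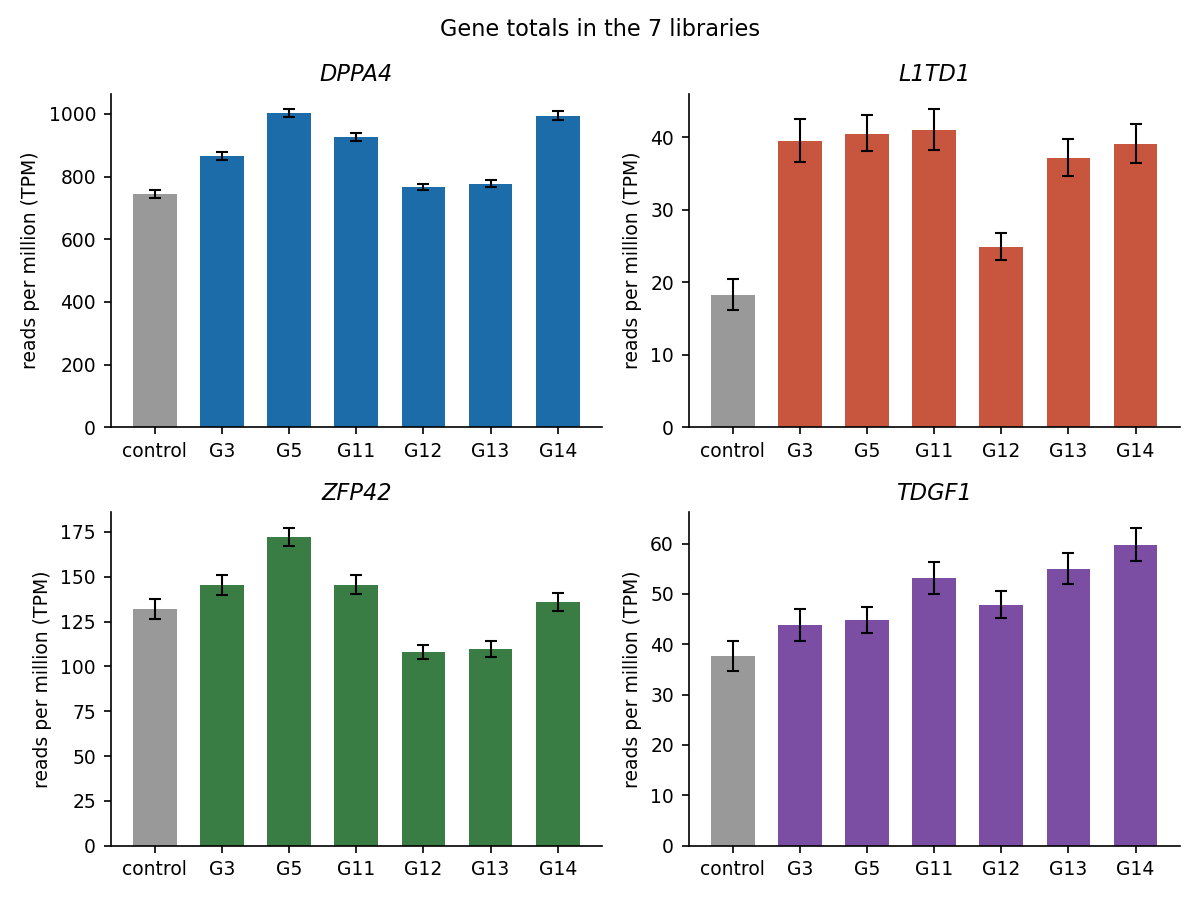
Level of each gene in TPM (y axis, from 0) in the control (grey) and the 6 G libraries (coloured); error bars are 95% Poisson intervals of the read count, with 1 library per bar. L1TD1 goes from 18.2 in the control to between 24.9 and 41.0 in the G libraries, while the ZFP42 bars of G12 and G13 lie below the control.

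L1TD1 (ENSG00000240563.2, chr1:62194831-62212328, GRCh38, plus strand) was read 306 times in the control, 704 (G3), 1030 (G5), 854 (G11), 663 (G12), 847 (G13) and 819 (G14). These reads gave 18.2 TPM in the control, 39.4 (G3), 40.5 (G5), 41.0 (G11), 24.9 (G12), 37.2 (G13) and 39.1 (G14). The control was the lowest library and G12 came next. Among the other 5, neighbours in the order did not differ beyond counting error, while G13, the lowest of them, lay above G12 beyond it. Relative to the control the level was 217% (G3, 95% interval 189 to 249), 222% (G5, 195 to 253), 225% (G11, 197 to 257), 136% (G12, 119 to 157), 204% (G13, 179 to 233) and 215% (G14, 188 to 246). The share of all genes compared that were at least 2-fold higher was 1.89% (G3), 0.533% (G5), 0.724% (G11), 0.546% (G12), 1.04% (G13) and 3.97% (G14). The median log2 ratio of L1TD1 over the 6 G libraries was 1.09, and 47 of 7877 genes, 0.597%, had a median of at least 1. After removal of the trend with length and GC content the L1TD1 median was 0.84. The ratios then ran from 0.31 (G12) to 0.93 (G3), all under 2-fold. In either direction, 7.03% of genes were past 2-fold in G3, 10.7% (G5), 11.1% (G11), 9.33% (G12), 15.6% (G13) and 22.8% (G14). With the median-of-ratios scaling in place of library totals, the genes past 2-fold went from 43 higher and 692 lower to 88 and 498 in G12, from 82 and 1147 to 168 and 886 in G13, and from 313 and 1486 to 484 and 1278 in G14. The scaling factors of G12, G13 and G14 lay -0.14, -0.16 and -0.11 log2 units from that of the control.

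DPPA4 (ENSG00000121570.13, chr3:109326141-109337572, GRCh38, minus strand) was the most deeply read of the 4 genes, with 12511 reads in the control, 15457 (G3), 25502 (G5), 19310 (G11), 20437 (G12), 17724 (G13) and 20832 (G14). Its level was 745 TPM in the control, 866 (G3), 1002 (G5), 927 (G11), 766 (G12), 778 (G13) and 995 (G14). G5 and G14 were the highest and did not differ beyond counting error, while G12 and G13 lay close to the control. The level was 135% of the control in G5 (132 to 137), 134% in G14 (131 to 137), 104% in G13 (102 to 107) and 103% in G12 (101 to 105). The median log2 ratio was 0.27, and 0.11 after removal of the length and GC trend, with G12 and G13 then below 0 at -0.06 and -0.09.

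ZFP42 (ENSG00000179059.10, chr4:187995771-188005050, GRCh38, plus strand) gave 2214 reads in the control, 2590 (G3), 4379 (G5), 3029 (G11), 2883 (G12), 2500 (G13) and 2850 (G14). In TPM the control stood at 132, G3 at 145, G5 at 172, G11 at 145, G12 at 108, G13 at 110 and G14 at 136. G5 was the highest library, and G12 and G13 were the lowest and did not differ from each other beyond counting error. The level was 131% of the control in G5 (124 to 137), 82.0% in G12 (77.6 to 86.7) and 83.2% in G13 (78.6 to 88.2). In G14 the interval of the ratio held equality (97.6 to 109). The median log2 ratio of 0.09 turned to -0.09 after removal of the length and GC trend, so its sign rests on that choice; G11 and G14 then lay below 0 too, at -0.02 and -0.17, and 2 of the 6 G libraries above it.

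TDGF1 (ENSG00000241186.10, chr3:46574534-46582463, GRCh38, plus strand) was read 632 times in the control, 781 (G3), 1139 (G5), 1106 (G11), 1277 (G12), 1252 (G13) and 1251 (G14). Its level was 37.6 TPM in the control, 43.8 (G3), 44.8 (G5), 53.1 (G11), 47.9 (G12), 54.9 (G13) and 59.7 (G14). The control was the lowest and G14 the highest, and G3 and G5 did not differ beyond counting error. The ratio to the control was 116% (G3, 105 to 129), 119% (G5, 108 to 131), 141% (G11, 128 to 156), 127% (G12, 116 to 140), 146% (G13, 133 to 161) and 159% (G14, 144 to 175). The median log2 ratio was 0.42, and 0.31 after removal of the trend. Among the 7877 genes, the median ratio ranked at percentile 99.5 for L1TD1, 87.9 for TDGF1, 77.0 for DPPA4 and 62.6 for ZFP42. After removal of the trend, among 7736 genes, these were 97.5 for L1TD1, 76.6 for TDGF1, 57.7 for DPPA4 and 38.8 for ZFP42.

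**Figure D2:**
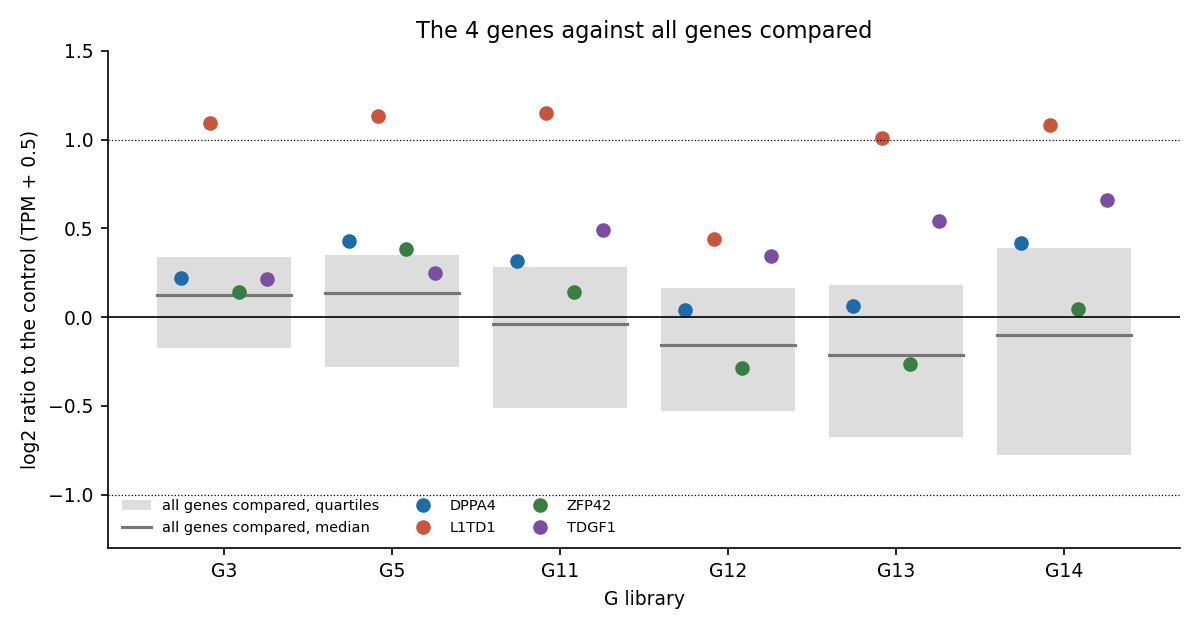
Log2 ratio to the control of each G library (y axis, on TPM + 0.5; dotted lines mark 2-fold), for the 4 genes (points) and for all 7877 genes compared (grey box, quartiles; grey line, median). L1TD1 lies above the box in every G library, at 0.44 in G12 and from 1.01 to 1.15 elsewhere, and ZFP42 lies inside the box or just above it.

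The isoforms behind these totals numbered 175 for DPPA4, 74 for ZFP42, 46 for L1TD1 and 31 for TDGF1. Only 5 carried a reference transcript ID. The other 321 carried a hashed ID, and the exon boundaries of 319 of them were recovered from the hash. Hashed isoforms are numbered here within each gene by mean share. Isoforms with a mean share of at least 5% of their gene's reads, or of at least 10% in any library, numbered 2 for DPPA4, 3 for L1TD1, 4 for ZFP42 and 3 for TDGF1. Shares of splice forms below were grouped after the isoform structures and values were seen, and are given with Wilson intervals and no test.

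**Figure D3:**
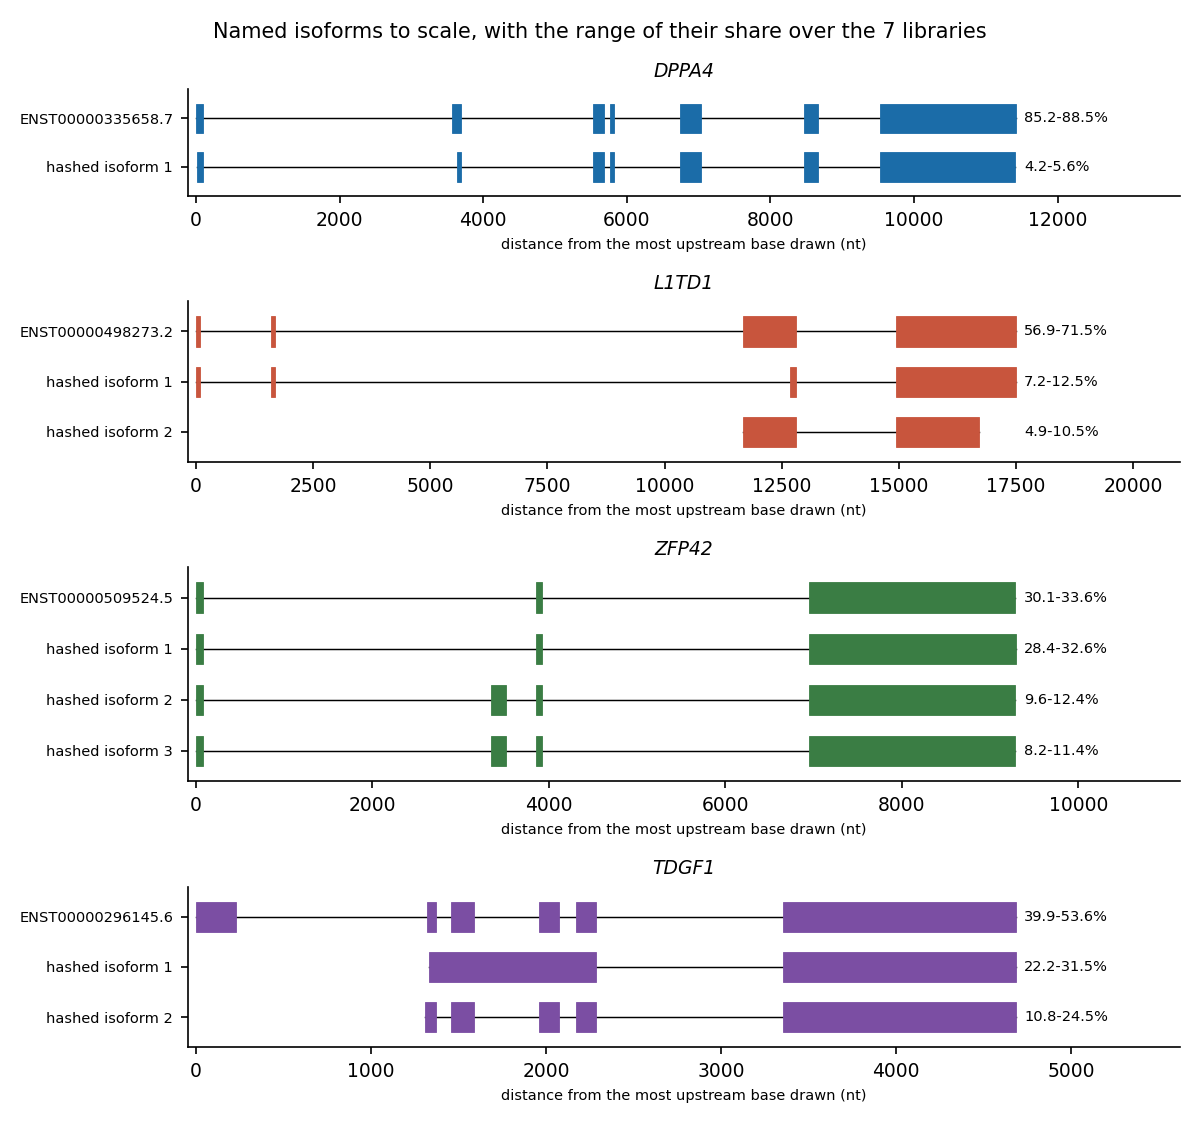
Exons (boxes) and introns (lines) of the 12 isoforms that reach those shares, drawn to scale against the distance in nt from the most upstream base drawn, with the lowest and highest share over the 7 libraries at the right. The leading isoform of DPPA4 holds 85.2 to 88.5% of the reads, while ZFP42 and TDGF1 divide theirs over several forms; ZFP42 isoforms that differ by 3 bases at the last exon look alike at this scale.

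The leading isoform of DPPA4, ENST00000335658.7, joins 7 exons and encodes the full protein. It held 85.3% of DPPA4 reads in the control, 86.5% (G3), 86.1% (G5), 85.2% (G11), 88.2% (G12), 87.5% (G13) and 88.5% (G14). Compared with the control by Fisher's exact test, two-sided and adjusted over the 24 comparisons of 4 genes in 6 libraries, the share was higher by 2.85 points (G12, adjusted p = 1.42e-12), by 2.14 points (G13, 7.28e-07), by 3.14 points (G14, 3.09e-15) and by 1.16 points (G3, 0.0118). In G5 the difference was 0.83 points (Fisher's exact test, adjusted p = 0.0543) and in G11 -0.09 points (0.846). Over isoforms with a read in all 7 libraries, Fisher's exact test gave differences of 2.01, 1.15 and 2.19 points in G12, G13 and G14, 0.42 points in G3 (adjusted p = 0.462) and -1.02 points in G11 (0.0344).

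The second DPPA4 isoform uses an acceptor inside exon 2 and leaves out the first 73 of its 124 bases. A GENCODE transcript with the same exon 2, ENST00000495679, is annotated as a target of nonsense-mediated decay, the pathway that degrades transcripts with an early stop codon. The exon, on chromosome 3 at chr3:109333870-109333993 (GRCh38, minus strand, all coding), is printed with the bases left out in capitals.

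DPPA4 exon 2: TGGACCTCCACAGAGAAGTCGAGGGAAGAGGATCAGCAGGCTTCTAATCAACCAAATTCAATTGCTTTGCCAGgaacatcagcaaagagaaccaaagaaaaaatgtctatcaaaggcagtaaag

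The capitals end in AG, the bases that close most introns. Of DPPA4 reads that held exon 2 with either start, 6.12% used the downstream acceptor in the control (5.71 to 6.56), 5.89% (G3), 6.15% (G5), 6.24% (G11), 5.14% (G12, 4.84 to 5.45), 5.57% (G13) and 4.69% (G14, 4.41 to 4.99). G12, G13 and G14 lay below the control's interval, though the interval of G13 (5.24 to 5.92) overlapped it, and G3, G5 and G11 lay inside it. Exon 5, of 289 nt, was skipped in 3.70% of the reads that span it in the control (3.38 to 4.05), 3.47% (G3), 3.79% (G5), 4.42% (G11, 4.14 to 4.72), 3.12% (G12, 2.89 to 3.37), 3.58% (G13) and 3.25% (G14). G11 was above the control on this measure and G12 below it. An unannotated exon inside intron 1 was present in 0.71% to 0.81% of the reads in every library, and its intervals overlapped in all 7. Another inside intron 2 was present in 0.70% in the control (0.56 to 0.86) and in 0.52% (G12) to 0.76% (G5) of the reads in the G libraries.

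**Figure D4:**
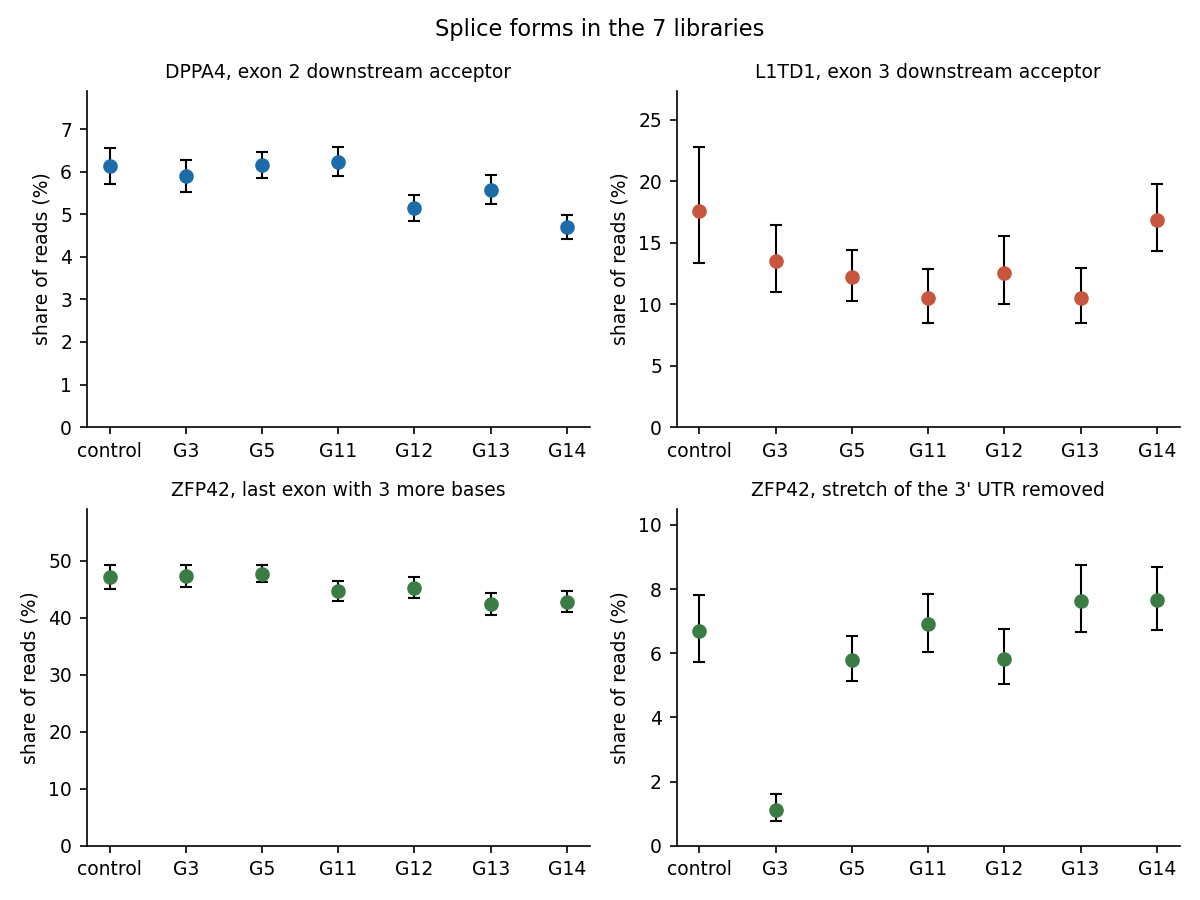
Share of reads (%, y axis, from 0) that hold each of 4 splice forms, by library; points are single libraries and bars are 95% Wilson intervals. The removed stretch of the ZFP42 3′ UTR is at 6.68% in the control and 1.12% in G3 and lies between 5.80% and 7.65% in the other 5 libraries.

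The leading isoform of L1TD1, ENST00000498273.2, joins 4 exons, and its coding region begins inside exon 3. It held 56.9% of L1TD1 reads in the control (51.3 to 62.3), 68.5% (G3), 71.1% (G5), 71.5% (G11), 62.7% (G12), 70.5% (G13) and 63.4% (G14). By Fisher's exact test the share was higher than in the control by 11.6 points (G3, adjusted p = 0.00105), 14.2 (G5, 1.85e-05), 14.7 (G11, 1.39e-05) and 13.6 (G13, 5.76e-05), with 5.88 points (G12, 0.134) and 6.51 (G14, 0.0920). None of these calls held over isoforms with a read in all 7 libraries, where Fisher's exact test gave differences of 3.04 points (G3, adjusted p = 0.551), 5.35 (G5, 0.206), 6.41 (G11, 0.121) and 5.26 (G13, 0.217), and where G12 and G14 turned to -2.02 and -1.62. The calls for the L1TD1 share thus depended on isoforms that lacked a read in some G library. The gene total kept its direction: its median log2 ratio over isoforms with a read in all 7 libraries was 1.28, against 1.09.

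The second L1TD1 isoform enters exon 3 at a downstream acceptor and leaves out 993 of the 1118 bases of the exon, among them the annotated start codon and 883 coding bases. The 60 bases around that acceptor, at chr1:62207482-62207541 (GRCh38, plus strand, coding), carry the usual AG in capitals just before the junction.

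L1TD1 exon 3, downstream acceptor: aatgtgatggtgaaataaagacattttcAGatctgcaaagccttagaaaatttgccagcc

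Of the L1TD1 reads spliced into exon 3 at either site, 17.6% used this acceptor in the control (13.4 to 22.8), 13.5% (G3), 12.2% (G5), 10.5% (G11, 8.48 to 12.8), 12.5% (G12), 10.5% (G13, 8.50 to 12.9) and 16.9% (G14, 14.3 to 19.8). The intervals of the control and of G11 and G13 did not overlap, and G14 lay close to the control. Over isoforms with a read in all 7 libraries the control share was 15.7% and the G libraries ran from 8.79% in G13 to 15.6% in G14. Isoforms that kept the whole coding region stood at 12.6 TPM in the control, 31.5 (G3), 34.0 (G5), 35.8 (G11), 20.3 (G12), 32.7 (G13) and 32.1 (G14). The coding form was thus higher in every G library, at 161% of the control in G12 (137 to 189) and from 250% to 283% in the other 5.

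The leading isoform of ZFP42, ENST00000509524.5, has 3 exons, and the whole coding region lies in the last one. It held 31.2% of ZFP42 reads in the control (29.3 to 33.2), 32.4% (G3), 30.1% (G5), 32.3% (G11), 32.3% (G12), 33.1% (G13) and 33.6% (G14). None of its 6 differences from the control passed Fisher's exact test (adjusted p from 0.119 to 0.469). Hashed isoform 1 differs from it by an acceptor 3 bases upstream of the annotated start of the last exon, hashed isoform 2 by the inclusion of exon 2 (168 nt), and hashed isoform 3 by both. Both choices lie upstream of the start codon. The acceptor region at chr4:188002708-188002733 (GRCh38, plus strand, 5′ UTR) has an AG just before the 3 added bases, which are in capitals and end in AG themselves.

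ZFP42 last-exon acceptor: agCAGgtgtttgctgaagacagctta

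The 3 bases were present in 47.1% of ZFP42 reads in the control (45.1 to 49.2), 47.3% (G3), 47.7% (G5), 44.7% (G11), 45.2% (G12), 42.4% (G13, 40.4 to 44.3) and 42.8% (G14, 41.0 to 44.6). Only the intervals of G13 and G14 lay wholly below that of the control. Exon 2 was included in 29.2% of the reads that began in exon 1 in the control (27.3 to 31.2), 30.5% (G3), 29.9% (G5), 29.3% (G11), 27.3% (G12), 26.1% (G13, 24.4 to 27.9) and 26.8% (G14). All 7 intervals of exon 2 overlapped that of the control. The coding region was intact in 99.5% of ZFP42 reads in the control (99.2 to 99.8), 99.9% in G12 and 100% in the other 5 libraries. Over isoforms with a read in all 7 libraries it was 100% in the control and G12 too.

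A stretch of the ZFP42 3′ UTR was absent from some reads. The most-read forms lack 127 or 293 nt.

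Reads lacking any such stretch made up 6.68% of ZFP42 reads in the control (148 of 2214; 5.72 to 7.80), 1.12% (G3, 29 of 2590; 0.781 to 1.60), 5.80% (G5), 6.90% (G11), 5.83% (G12), 7.64% (G13) and 7.65% (G14). The interval of G3 overlapped that of no other library, while the control's overlapped those of the other 5 G libraries. The 127 nt form accounted for 65 reads in the control, 4 (G3), 124 (G5), 127 (G11), 96 (G12), 111 (G13) and 139 (G14). The 293 nt form accounted for 37, 20, 98, 63, 40, 49 and 51 reads in the same order. Its share was 0.772% in G3 (0.5004 to 1.19) against 1.67% in the control (1.21 to 2.29), and that of the 127 nt form was 0.154% (0.0601 to 0.396) against 2.94% (2.31 to 3.72). Over isoforms with a read in all 7 libraries, a rule that removes forms with 0 reads in G3, the share was 2.89% in the control, 0.968% in G3 and 3.25% to 4.47% elsewhere. The cause was not tested.

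TDGF1 has a proximal first exon, from which its leading isoform ENST00000296145.6 begins, and a distal first exon 2703 bases upstream used by ENST00000542931.6. The leading isoform held 52.7% of TDGF1 reads in the control (48.8 to 56.6), 53.6% (G3), 49.2% (G5), 45.3% (G11), 42.4% (G12), 39.9% (G13) and 40.8% (G14). By Fisher's exact test the share was lower than in the control by 7.39 points (G11, adjusted p = 0.00705), 10.3 (G12, 5.76e-05), 12.8 (G13, 1.09e-06) and 11.8 (G14, 5.60e-06), with differences of 0.96 points (G3, 0.780) and -3.52 (G5, 0.226). Over isoforms with a read in all 7 libraries, Fisher's exact test gave -9.15 points (G11, adjusted p = 0.00147), -12.4 (G12, 2.49e-06), -14.9 (G13, 4.91e-08) and -13.7 (G14, 2.99e-07). Over all 4 genes, 12 of the 24 leading-isoform comparisons passed Fisher's exact test at an adjusted p under 0.05, 8 higher and 4 lower. This count has no share over all genes beside it, so it does not set the 4 genes apart. It also changed over isoforms with a read in all 7 libraries. There the higher calls of DPPA4 in G3 and of L1TD1 in G3, G5, G11 and G13 did not pass, and DPPA4 in G11 passed as lower.

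The forms with higher shares in those libraries begin at exon 2, which here means inside it or up to 15 nt upstream. One form (hashed isoform 2) begins 7 bases upstream of exon 2, in intron 1, and is spliced like the leading isoform from there on, and another (hashed isoform 1) begins inside exon 2 and keeps introns 2, 3 and 4 (84, 372 and 97 nt) in 1 block. Exon 2, at chr3:46579095-46579147 (GRCh38, plus strand), holds the start codon of the distal transcript, in capitals. The most-read spliced form keeps this codon, and the most-read form with retained introns begins at its last base. The start codon of the proximal transcript lies in its first exon and is missing from both.

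TDGF1 exon 2: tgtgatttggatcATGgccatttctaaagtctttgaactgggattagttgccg

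The spliced forms that begin at exon 2 made up 11.2% of TDGF1 reads in the control (9.003 to 13.9), 13.3% (G3), 17.2% (G5), 20.1% (G11), 22.0% (G12), 23.2% (G13) and 24.9% (G14, 22.5 to 27.3). The forms with retained introns that begin outside a first exon made up 27.2% in the control (23.9 to 30.8), 23.05% (G3), 24.8% (G5), 29.02% (G11), 29.4% (G12), 32.7% (G13, 30.2 to 35.4) and 28.9% (G14). For these retained forms together, the control's interval overlapped that of every G library. Reads that began in either first exon made up 61.4% in the control (57.5 to 65.1), 63.6% (G3), 58.0% (G5), 50.9% (G11), 48.6% (G12), 44.1% (G13) and 46.3% (G14, 43.5 to 49.1). The spliced share was lowest in the control and highest in G14, and the first-exon share was lower in G11, G12, G13 and G14 than in the control beyond the intervals. The distal first exon gave 1.84% (G13) to 6.27% (G3) of the reads, against 4.43% in the control (3.08 to 6.33). Each of these shares moved by less than its counting interval over isoforms with a read in all 7 libraries.

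In G5, G11, G12, G13 and G14 most of the difference of the TDGF1 total from the control lay in forms without a first exon, and in G3 most lay in forms with one. Reads from a first exon stood at 23.1 TPM in the control, 27.8 (G3), 26.0 (G5), 27.0 (G11), 23.3 (G12), 24.2 (G13) and 27.6 (G14). That is 101% (88.6 to 115) to 121% (105 to 138) of the control, with the intervals of G5, G12 and G13 holding equality. The spliced forms that begin at exon 2 went from 4.23 TPM in the control to 5.83 (G3), 7.70 (G5), 10.7 (G11), 10.5 (G12), 12.7 (G13) and 14.8 (G14), which is 351% of the control in G14 (271 to 461). The forms with retained introns stood at 10.2 TPM in the control, 10.1 (G3), 11.1 (G5), 15.4 (G11), 14.1 (G12), 17.99 (G13) and 17.2 (G14). The level of TDGF1 that counts only reference isoforms had a median log2 ratio of 0.17, against 0.42 for all isoforms.

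**Figure D5:**
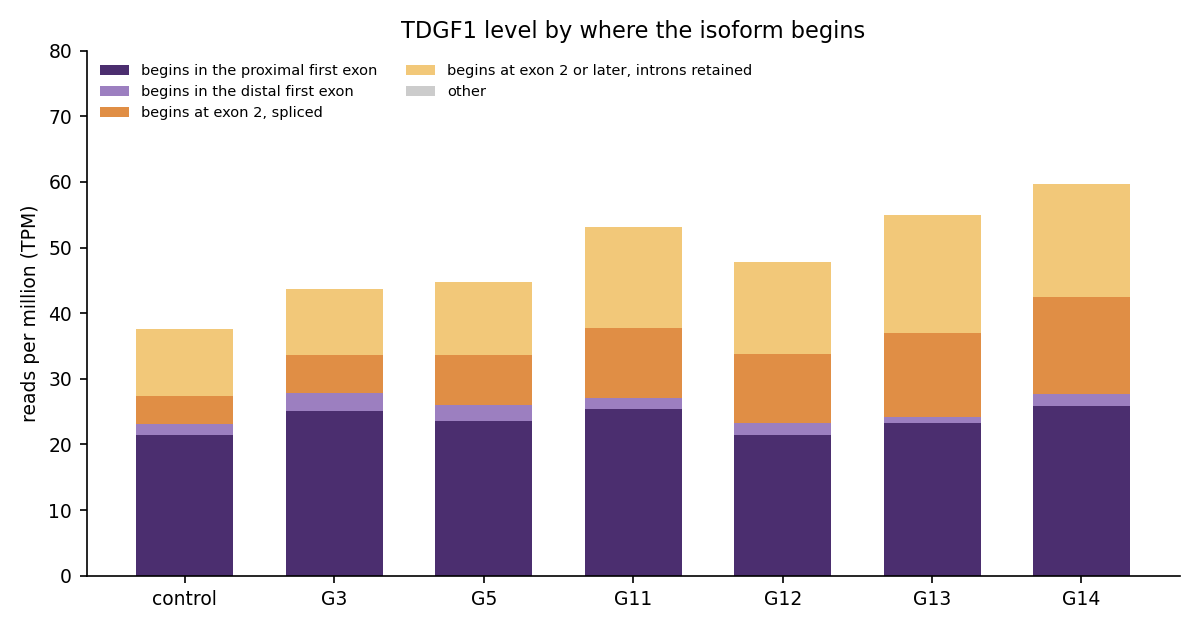
TDGF1 level in TPM (y axis, from 0) in each library, stacked by where the isoform begins and whether introns are retained; each bar is 1 library. The parts that begin in a first exon sum to 23.1 in the control and 23.3 to 27.8 in the G libraries, while the spliced part that begins at exon 2 goes from 4.23 to 14.8.

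A read that lacks the first exon can come from a transcript that starts there or from a cDNA that stops short, and which applies was not tested. Over all genes, the share of reads whose isoform begins within 100 bases of an annotated start was 90.1% in the control and 90.0% to 90.8% in the G libraries. This takes the start of the isoform a read was assigned to, not of the read itself. Isoforms with a reference ID held 87.3% (control) to 88.7% (G13) of the reads. The measure therefore does not show how many cDNAs stopped short. Reads without the first exon also differed between libraries in L1TD1 and ZFP42. L1TD1 reads that began at exon 3 made up 5.23% in the control (3.24 to 8.32), 5.68% (G3), 5.05% (G5), 7.26% (G11), 8.90% (G12), 9.56% (G13) and 10.5% (G14, 8.58 to 12.8). ZFP42 reads that began in exon 1 made up 98.2% in the control (97.5 to 98.7), 98.3% (G3), 98.1% (G5), 97.4% (G11), 95.8% (G12), 94.9% (G13, 94.0 to 95.7) and 95.7% (G14). The intervals of the control and G14 did not overlap for L1TD1, nor those of the control and G12, G13 or G14 for ZFP42. DPPA4 reads began in exon 1 in 99.8% or 99.9% of cases in all 7 libraries. TDGF1 overlaps the gene LRRC2 on the opposite strand, which stood at 1.05 to 2.72 TPM, and has processed pseudogenes; the table listed no row for the pseudogene TDGF1P3, and how reads shared with a pseudogene were assigned is not given in the sources used here.

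The promoter windows in RefSeq (GRCh38.p14, 250 bases before each start) were searched on both strands for a composite element of the SOX2 and OCT4 type, written CATTGT, then any base (N), then ATGC, and for the octamer ATGCAAAT, which shares the letters ATGC with it. The first was found in 31 of 35116 windows (0.0883%), 1 of which is the proximal window of TDGF1. The octamer was found in 573 windows (1.63%) and in none of the 5 windows of the 4 genes. The match lies 138 bases before the RefSeq start, at chr3:46577642-46577668 on the plus strand with 8 bases on each side, and is shown because most TDGF1 reads with a first exon began just downstream of it. In GENCODE 29 the annotated first exon reaches further upstream and holds it.

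TDGF1 motif match, in capitals: gtgtgggcCATTGTCATGCtggtgggc

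Partners and relatives of the 4 genes did not follow a common course. DPPA2, the partner of DPPA4, stood at 11.8 TPM in the control, 8.35 (G3), 9.43 (G5), 9.41 (G11), 12.6 (G12), 14.4 (G13) and 9.74 (G14). It was lower than the control in 4 libraries and higher in G12 and G13, the G libraries in which DPPA4 was lowest. LIN28A, an RNA-binding protein that acts on let-7 microRNA precursors, stood at 170 TPM in the control, 179 (G3), 182 (G5), 138 (G11), 97.5 (G12), 73.2 (G13) and 93.8 (G14). DPPA3 stood at 0.286 to 0.672 TPM over the 7 libraries, and DPPA5 at 1.19 in the control and 0.280 to 0.816 in the G libraries. YY1 stood at 9.76, 16.4, 9.82, 9.55, 5.92, 5.18 and 4.58 TPM in the same order. LIN28A and YY1 were thus lowest in G12, G13 and G14. ZFP42 was lowest in G12 and G13, and L1TD1 was above the control in every G library.

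Around TDGF1, 23 genes of NODAL and activin signalling were listed, of which 18 had rows and 13 reached a mean of 5 TPM. None of the 13 was at least 2-fold higher in any G library. The number at least 2-fold lower was 0 (G3), 0 (G5), 1 (G11), 3 (G12), 4 (G13) and 4 (G14), while the share of all genes compared that were this much lower was 5.14% (G3), 10.1% (G5), 10.4% (G11), 8.79% (G12), 14.6% (G13) and 18.9% (G14). The median log2 ratio of the 13 was 0.26 (G3), 0.11 (G5), -0.12 (G11), -0.45 (G12), -0.34 (G13) and -0.63 (G14). FOXH1, the DNA-binding partner of SMAD2 in this pathway, was past 2-fold in 4 libraries, at 53.8 TPM in the control, 81.1 (G3), 40.7 (G5), 19.4 (G11), 16.98 (G12), 8.64 (G13) and 8.35 (G14). LEFTY1, a secreted NODAL antagonist, was past 2-fold in 3 libraries, at 445 TPM in the control, 462 (G3), 335 (G5), 286 (G11), 206 (G12), 196 (G13) and 137 (G14). NODAL itself stood at 23.2 TPM in the control and 14.8 to 27.8 in the G libraries. HSPA5, a chaperone that binds TDGF1 at the cell surface, stood at 3539 TPM in the control and 3744 to 5304 in the G libraries. The LEFTY1 median log2 ratio of -0.87 went to -0.16 after removal of the length and GC trend, and that of FOXH1 from -1.54 to -0.83. Below a mean of 5 TPM, and so not compared, FURIN and PMEPA1 in this list and TERT and UTF1 among the pluripotency genes were also past 2-fold lower in at least 3 G libraries. Their reads in the control were 22 (FURIN), 79 (PMEPA1), 27 (TERT) and 9 (UTF1). FURIN was past 2-fold higher in G3, with 63 reads. Rare isoforms weigh more in the control, and the part of this in these low values was not tested.

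Of 26 other pluripotency genes, 22 had rows and 19 reached a mean of 5 TPM. None was at least 2-fold higher in any G library, and 1 (G3), 1 (G5), 1 (G11), 2 (G12), 5 (G13) and 6 (G14) of the 19 were at least 2-fold lower, beside 5.14%, 10.1%, 10.4%, 8.79%, 14.6% and 18.9% of all genes compared. The median log2 ratio of the 19 was 0.08 (G3), 0.14 (G5), -0.27 (G11), -0.48 (G12), -0.67 (G13) and -0.54 (G14), beside 0.12, 0.14, -0.04, -0.16, -0.21 and -0.10 over all genes. NANOG, a homeodomain factor of the core pluripotency network, went from 10.0 TPM in the control to 3.49 (G14) to 5.54 (G5) and was past 2-fold in 4 libraries. PODXL, a surface sialomucin, stood at 48.7 TPM in the control, 84.5 (G3), 56.3 (G5), 33.9 (G11), 22.3 (G12), 15.3 (G13) and 20.6 (G14), past 2-fold in the last 3. GAL, a neuropeptide, was past 2-fold in 3 libraries with a median log2 ratio of -1.06, which was 0.04 after removal of the length and GC trend. The same removal took the PODXL median from -0.81 to -0.34 and that of POU5F1 from -0.73 to -0.40. POU5F1, another core factor, stood at 915 TPM in the control and 377 (G14) to 588 (G3) in the G libraries.

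Of 7 human embryonic stem cell markers, 6 had rows. Their summed level was 1250 TPM in the control and lowest in G14 at 611, of which POU5F1 alone gave 915 and 377 TPM. SALL4, in the same set, stood at 61.7 TPM in the control and 91.4 in G14. The number of the 6 at least 2-fold lower than the control was 0 (G3), 0 (G5), 1 (G11), 2 (G12), 4 (G13) and 3 (G14), beside the shares of all genes just given. All 6 are also among the 19 pluripotency genes, so this is no second result, and their part in the results above was not tested. SOX2 had no row, so its level is not given here. Of the ectoderm markers 1 of 4 had a row, of the mesoderm markers 3 of 5 and of the endoderm and trophoblast markers 2 of 4 each; a marker read only in G libraries could not appear here. Those with rows summed to 0.238 TPM or less for each germ layer in every library. FOXA2 had 1 read in the control and 0 in the 6 G libraries. NES had 4 reads in the control, 2 in G3 and 0 in the other 5 libraries. Only isoforms with a control read are listed, so these zeros do not show a loss. The trophoblast markers summed to 0.937 to 2.41 TPM. Naive-state markers summed to 5.52 to 8.96 TPM and primed-state markers to 1280 to 1707 TPM. Fibroblast markers summed to 866 TPM in G14 and 1014 TPM in the control, of which THY1, which human embryonic stem cells also express, gave 817 and 918 TPM. COL1A1, a fibroblast collagen, stood at 16.4 TPM in the control and 1.58 (G13) to 30.3 (G3) in the G libraries. Of the fibroblast markers it had the median log2 ratio furthest from 0, at -1.45, which was -0.36 after removal of the length and GC trend.

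The genes whose profiles over the 7 libraries were most like those of the 4 genes were found among 5218 genes with a mean of at least 20 TPM, by the root mean square difference of centred log2 values. For DPPA4 these were RNMT (0.03), SF3B3 (0.03) and RAB6A (0.03), and 514 genes lay within 0.1. Among those nearest to ZFP42 were DUSP6 (0.01) and IDI1 (0.03), with 169 genes within 0.1. TDGF1 was nearest to METTL9 (0.05), CENPL (0.05) and DNAJC7 (0.05), with 145 genes within 0.1. For L1TD1 no gene lay within 0.1, and the nearest were GTPBP4 (0.12), CCT6A (0.16) and SQLE (0.16). The limit of 0.1 was not scaled to the spread of each profile. The standard deviation of the log2 profile was 0.18 for DPPA4, 0.24 for ZFP42, 0.22 for TDGF1 and 0.45 for L1TD1. The numbers of genes within 0.1 are therefore not comparable between the 4 genes.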

How the data were processed

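Polyadenylated RNA of HUES66 cells was sequenced as 8-fold arrays of joined cDNA molecules, per the labels' protocols, and split into single-molecule reads. Alignment used minimap2 2.17 on GRCh38, per the submitters' processing notes; the software that called isoforms is not given in the sources used here. The deposited table gives, per the file headers, an integer read count and a TPM per isoform in each library. Deposited TPM values equalled the deposited count over the library total within 0.0092. Empty cells were read as 0, and isoforms were summed by Ensembl gene ID.

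The 4 genes, the gene lists and the marker lists were chosen with earlier results of these data known. Hashed isoform IDs were decoded as 64-bit hashes of exon boundaries, with GENCODE 29 exons as the starting set; both parts of an ID had to hash back exactly. Log2 ratios used TPM + 0.5. A gene was compared if its mean was at least 5 TPM, and 2-fold was the threshold. Count ratios carry exact (Clopper-Pearson) and shares Wilson 95% intervals. Leading-isoform shares were compared by Fisher's exact test, Benjamini-Hochberg adjusted over 24 comparisons. Named isoforms held a mean share of at least 5%, or 10% in a library; other genes named were the 3 nearest profiles (1 of those of ZFP42 is not reported here), genes of the pluripotency and NODAL lists past 2-fold in at least 3 G libraries in 1 direction, 8 relatives, and POU5F1, NODAL, HSPA5, THY1, COL1A1, FOXA2 and NES, which were picked with their values in view. The length and GC trend was a quadratic fit per library over 7736 genes with a GENCODE sequence. Python 3.11.15, pandas 2.3.3 and scipy 1.17.1 were used, and the steps were tested on simulated counts. The alternatives tried were other pseudocounts, filters, scalings, references and isoform subsets, and leaving out each G library. Motif windows came from RefSeq and other sequences from GENCODE 29.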

Additional observations from a re-analysis of the deposited data

How the results depend on the processing

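No paired analysis was possible because each group has 1 library and all share the single replicate number 1. Leaving out each G library in turn moved the median log2 ratio of DPPA4 between 0.22 and 0.32 (against 0.27), L1TD1 between 1.08 and 1.09 (1.09), ZFP42 between 0.05 (without G3, G5 or G11) and 0.14 (without G12, G13 or G14; 0.09) and TDGF1 between 0.34 and 0.49 (0.42). Removing the length and GC trend gave medians of 0.11 for DPPA4, 0.84 for L1TD1 and -0.095 for ZFP42, which reversed, as did DPPA4 in G12 (-0.063) and G13 (-0.093) and ZFP42 in G11 (-0.018); ZFP42 in G14, whose counting interval held equality, went to -0.17. Counting only reference isoforms gave medians of 1.32 for L1TD1 and 0.17 for TDGF1, reversed TDGF1 in G12 (-0.018), and set the leading share, by construction, to 100% for DPPA4, L1TD1 and ZFP42 and 96.7% for TDGF1. With the median of the other 6 libraries as reference, DPPA4 in G12 (-0.23) and G13 (-0.20) and L1TD1 in G12 (-0.65) and G13 (-0.079) lay below 0. So did TDGF1 in G3 (-0.20), G5 (-0.17) and G12 (-0.026), and ZFP42 in G12 (-0.38), G13 (-0.36) and G14 (-0.023). L1TD1 in G3, G5, G11 and G14 then lay close to equality, from 0.030 (G14) to 0.10 (G11). The median leading share over libraries rose with isoforms of at least 1 TPM to 88.3% (DPPA4), 76.2% (L1TD1), 34.0% (ZFP42) and 48.8% (TDGF1), and with a read in all 7 libraries to 87.0% (DPPA4). Under the first filter leading-share differences reversed for DPPA4 in G5 (-0.069 points), L1TD1 in G12 (-1.32) and G14 (-4.84) and ZFP42 in G3 (-0.27); under the second for L1TD1 in G12 (-2.02) and G14 (-1.62), ZFP42 in G3 (-0.22) and TDGF1 in G3 (-0.99). Without the filter on low values 956 genes (G3), 1291 (G5), 1690 (G11), 1606 (G12), 2477 (G13) and 2906 (G14) were past 2-fold, and at 20 TPM 319, 552, 458, 277, 526 and 1109, against 554, 840, 874, 735, 1229 and 1799. Pseudocounts of 0.1 and 1 TPM changed no direction of the 4 genes. With 1 TPM the log2 ratio of L1TD1 in G13 was 0.99, just under 2-fold.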

Other observations

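DPPA2 lies downstream of DPPA4 on the same strand, and 5 isoforms assigned to DPPA2 reached the first exon of DPPA4. They held 18 reads in the control, 16 (G3), 30 (G5), 16 (G11), 22 (G12), 16 (G13) and 18 (G14). Relative to all DPPA2 reads that is 9.09% in the control (Wilson 95% interval 5.83 to 13.9), from 4.88% in G13 (3.02 to 7.78) to 12.5% in G5 (8.90 to 17.3), and the control's interval overlapped that of every G library.

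Loci without a gene ID that lie inside ZFP42 on its strand held 21 isoforms, with 5.39% (G5) to 8.40% (G13) as many reads as the gene itself and 6.55% in the control. Adding them changed no direction of the ZFP42 ratios. For DPPA4, L1TD1 and TDGF1 such loci held less than 1% as many reads in every library.

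A 2-exon ZFP42 isoform that begins in exon 2 and runs on into exon 3 (hashed isoform 5) had 22 reads in the control, 36 (G3), 54 (G5), 60 (G11), 95 (G12), 87 (G13) and 97 (G14). It was singled out after its values were seen, and it accounts for most of the ZFP42 reads that do not begin in exon 1.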
